A study of Mus musculus with 9 samples.

Results

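The beige-only promoter peaks of Ets1 are the Ets1 peaks of cultured beige adipocytes that touch a promoter and meet no Ets1 peak of adipocytes taken from fat of cold-exposed or room-temperature mice. A promoter was the stretch of 1 kb on each side of a transcription start site (TSS) of a protein-coding gene. Of the 30553 Ets1 peaks in beige cells, 11068 touched a promoter, and 5580 of these, or 18.3% of the whole list, overlapped no peak of either mature adipocyte list by as much as 1 bp. They lay at the promoters of 5105 of 21938 protein-coding genes (23.3%). The 5488 promoter peaks that did overlap such a peak are called shared here. Members were chosen by peaks of the Ets1 libraries themselves, so Ets1 values below describe them and test nothing.

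The study asked how Ets1 acts in adipocytes during beiging, and deposited 9 peak lists from mouse fat with 1 library per group. Ets1 was profiled in beige adipocytes differentiated over 6 days in culture out of stromal vascular fraction, the cells left once fat cells are removed, from mice that were 3 to 4 weeks old. It was also profiled in mature adipocytes from inguinal white fat (iWAT) of wild type C57 mice after 7 days of cold stress (CS), and in the same cells without cold (RT). Open chromatin (ATAC) and acetylation of lysine 27 on histone H3 (H3K27ac) were profiled in mature iWAT adipocytes of EAKO mice, which carry floxed Ets1 alleles with Adipoq-Cre, and of Flox mice, which carry the floxed alleles alone. H3K27ac was also profiled in EA+/+ mice, an Ets1 knock-in switched on by Adipoq-Cre, and in EC+/+ mice, with the knock-in allele alone. Adult mice were males aged 8 to 10 weeks. Adipoq-Cre acts in adipocytes, so other cells that travel with the floating fraction keep their alleles unchanged. Per the study's methods, the beige medium held insulin, triiodothyronine and rosiglitazone, with dexamethasone and isobutyl methylxanthine at the start. Beige cells differ from CS and RT adipocytes in culture, in these agents and in the age of the mice. From CS adipocytes they differ also in cold, and these differences cannot be told apart. No list of open chromatin or H3K27ac from beige cells was analysed here, so both marks are those of adult iWAT adipocytes. Each group being 1 library, differences between groups have no test here, and the 95% intervals given (Wilson) cover counting error only.

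Ets1 is the founding member of the ETS family, transcription factors that share a winged helix DNA-binding domain and bind a GGAA core, with the strongest sites reading CCGGAAGT. Family members recognise nearly the same sites, and many of those sites lie close to the TSS of housekeeping genes. At promoters without such a strong site, Ets1 is known to bind together with partners such as RUNX and AP-1 factors. Beige adipocytes are fat cells rich in mitochondria that arise in white fat on cold or in culture from stromal progenitors. In CUT&Tag, the assay used for Ets1 and H3K27ac, an antibody brings a transposase to its target, and the transposase can also tag open DNA that lacks the target.

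Sequences around the summit, the base of highest signal, are shown for 8 members so that the letters under the peaks can be seen. The first 5 had the highest −log10 q (the significance the peak caller assigned, larger for stronger peaks) among members whose window, 50 bp on each side of the summit, held CCGGAAGT on either strand. Capitals mark that motif, read on the plus strand of mm10, where it appears as ACTTCCGG when it runs on the other strand. Where the window reached an annotated UTR only 29 bases around the motif are shown.
Trmu, chr15:85879319-85879347: ggaggctgggACTTCCGGcgtagcttgga
Crlf2, chr5:109557097-109557197: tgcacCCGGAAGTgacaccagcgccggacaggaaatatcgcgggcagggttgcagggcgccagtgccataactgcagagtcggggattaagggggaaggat
Dmwd, chr7:19076196-19076224: tagcccctcaACTTCCGGctggggggtct
Fubp3, chr2:31572546-31572646: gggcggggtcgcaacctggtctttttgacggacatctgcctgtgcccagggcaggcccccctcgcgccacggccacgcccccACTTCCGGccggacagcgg
Sh3gl1, chr17:56036637-56036737: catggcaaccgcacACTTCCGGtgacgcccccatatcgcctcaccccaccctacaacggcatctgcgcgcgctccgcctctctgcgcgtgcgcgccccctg
These peaks had −log10 q of 73.5 at Trmu, 65.4 at Crlf2, 65.1 at Dmwd, 62.9 at Fubp3 and 62.6 at Sh3gl1. In each of the 5 windows the motif occurred once.

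The next window, at Tnrc18, held no GGAA on either strand and is shown because it belonged to the strongest beige-only promoter peak of all.
Tnrc18, chr5:142817751-142817851: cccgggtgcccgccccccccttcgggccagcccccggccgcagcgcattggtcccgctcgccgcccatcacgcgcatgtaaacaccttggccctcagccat
The last pair are 2 of the 3 strongest members that met no ATAC and no H3K27ac peak of EAKO or Flox adipocytes. Capitals mark GGAA or its complement TTCC, which the window at Tgfb1 lacked.
Zmym5, chr14:56811884-56811984: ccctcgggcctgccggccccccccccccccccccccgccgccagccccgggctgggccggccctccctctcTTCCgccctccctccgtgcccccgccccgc
Tgfb1, chr7:25686811-25686911: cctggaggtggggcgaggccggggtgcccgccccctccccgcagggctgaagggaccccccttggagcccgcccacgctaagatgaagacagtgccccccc
Both windows are rich in cytosine runs. Zmym5 had the highest fold over local background among the members, 28.1, beside a median of 6.11 over all members.

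The Ets1 lists differed in size, with 30553 peaks in beige cells, 14858 in CS and 4056 in RT. The study lists the reads of each library, with more for the beige library than for CS or RT, and how much of beige-only status depends on them was not tested. Beige-only promoter peaks were the weaker part of the beige promoter peaks, with a median −log10 q of 6.86 (quartiles 3.86 and 13.0, range 1.30 to 189), against 20.2 for shared promoter peaks (quartiles 9.91 and 39.8). Of 1144 promoter peaks with −log10 q up to 3, 83.8% were beige-only, and of 2938 above 24, 19.5% were. The 573 strongest members therefore stand among peaks most of which were also called in mature adipocytes. Keeping as many of the best beige peaks as the CS list holds left 2802 members at 2844 genes.

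The 15 strongest beige-only promoter peaks reached −log10 q of 107 to 189 in beige cells. The peak 139 bp upstream of Tnrc18 (chr5:142817638-142818070) had −log10 q 189 in beige cells. It met an ATAC peak of 12.2 in EAKO and 41.1 in Flox and no H3K27ac peak, the nearest lying 3149 bp away in EAKO and 3034 bp in Flox. The peak upstream of Lgals1, which encodes the secreted lectin galectin-1, reached 155 in beige cells, on ATAC peaks of 116 in EAKO and 143 in Flox. It carried H3K27ac of 23.0 in EAKO and 20.1 in Flox, and a CS peak lay 512 bp away. Thus the 2 strongest members differed in acetylation, with none at Tnrc18 and peaks in both lists at Lgals1. Ahnak (chr19:8989850-8990612, in an intron), a very large scaffold protein under the membrane, had a beige peak of 146 with H3K27ac of 36.7 in EAKO and 39.0 in Flox. Zfp36 (chr7:28380973-28381637), whose product speeds the decay of cytokine mRNAs, had 143 in beige cells with H3K27ac of 44.0 in EAKO and 43.7 in Flox. Itga5 (chr15:103366518-103366937, summit 6 bp downstream of a TSS in an exon), the α subunit of the fibronectin receptor, had 107 in beige cells, H3K27ac of 9.79 in EAKO and 29.7 in Flox, and ATAC of 8.84 in EAKO and 23.0 in Flox. The remaining 10 of the 15 strongest were the peaks at Rnd2 and Vat1 (1 peak over both genes, 143), Rin1 (142), Synpo (135), Tspan4 (131), Lzts2 (131), Fam129b (120), Zmym5 (119), Mxra8 (116), Ftl1 (110) and Mpp7 (109). Rin1 encodes a Ras effector, Synpo an actin-bound protein, Tspan4 a tetraspanin and Ftl1 the light chain of ferritin, the iron store of the cell. All of the 15 but Zmym5 sat on ATAC peaks of both EAKO and Flox, and all but Zmym5 and Tnrc18 on H3K27ac peaks of both.

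**Figure D1:**
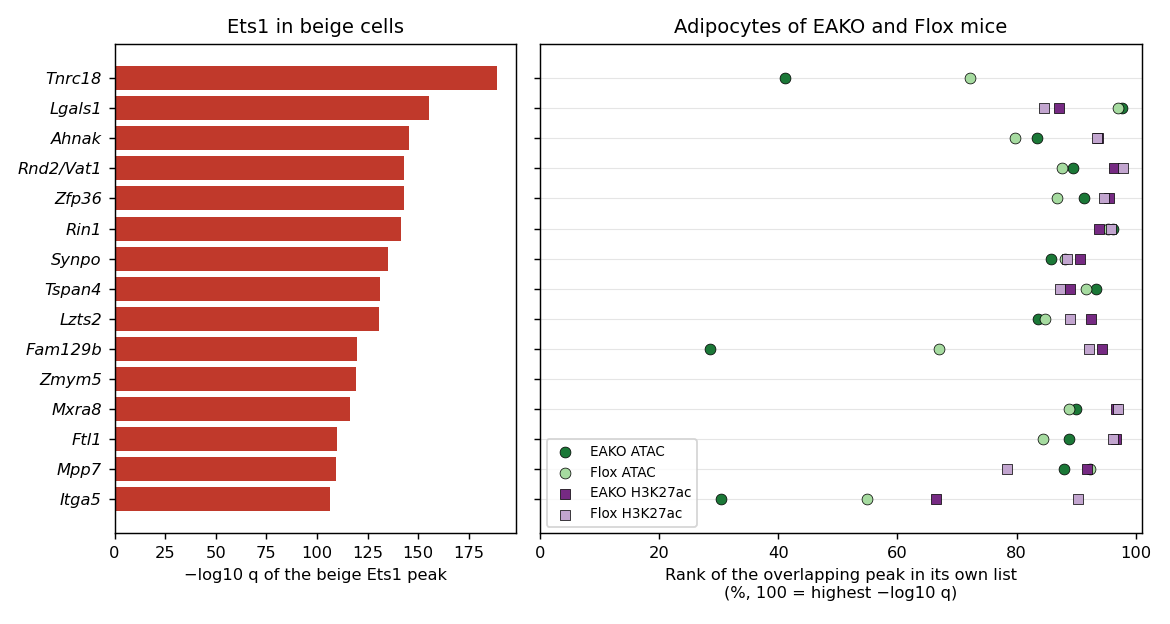
The 15 beige-only promoter peaks with the highest −log10 q, labelled by gene. Left, bars give −log10 q of the Ets1 peak in beige cells (1 library). Right, points give the rank of the overlapping ATAC (circles) or H3K27ac (squares) peak within its own list in EAKO (dark) and Flox (light) adipocytes, where 100% is the strongest peak of that list. Zmym5 has no point, Tnrc18 has ATAC points only, at 41.1% in EAKO and 72.1% in Flox, and most other points lie above 80%, the lower ones being at Ahnak, Fam129b, Itga5 and Mpp7.

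Beige-only promoter peaks were spread more widely around the TSS than shared ones. The median distance of the summit from the nearest TSS was 111 bp for beige-only peaks, against 71.0 bp for shared promoter peaks. The summit lay within 100 bp of a TSS in 46.8% of beige-only peaks (2609 of 5580, interval 45.4 to 48.1%), against 62.1% of shared ones (3409 of 5488, interval 60.8 to 63.4%). Summits over 500 bp away made up 20.3% of beige-only peaks and 4.59% of shared ones. In beige-only peaks 36.7% of summits fell in an intron, 30.7% outside protein-coding genes, 23.8% in an exon part annotated as UTR and 8.84% in other exon sequence. In shared peaks 18.4% fell in an intron and 44.4% outside protein-coding genes. Promoters of genes on both strands at once were touched by 7.83% of beige-only peaks, against 14.96% of shared ones. Beige-only peaks were also narrower, with a median width of 272 bp, against 465 bp for shared promoter peaks.

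Most members were alone at their gene. A single beige-only peak was found at 4255 of the 5105 genes, 2 at 735, 3 at 94 and 4 or more at 21, with 6 at Atp8b2 and at Plec, which encodes the cytoskeletal linker plectin. Conversely 5083 peaks touched the promoter of 1 gene, 477 of 2 genes and 20 of 3 or more. Beige-only status belongs to the peak and not to the gene. At 1014 of the 5105 genes (19.9%) another promoter peak of beige cells was shared, and 1377 genes (26.97%) had a CS peak elsewhere in their promoters, while 3710 genes (72.7%) had no CS and no RT peak at any promoter. The nearest CS peak lay within 500 bp of 499 members (8.94%), 10 to 100 kb away for 3114 (55.8%) and over 100 kb away for 739 (13.2%). At the edge of the rule, the members at Rnf214 and Pcsk7 (1 peak, −log10 q 9.37) touched a CS peak end to end without overlap, and those at Klhl28 and Togaram1 (1 peak, 64.5) and at Slc33a1 (16.9) lay 1 bp from one. Just outside the rule, the peaks at Ktn1 (2.68), at Eaf2 and Iqcb1 (1 peak, 9.33) and at Xrn2 (8.19) had the smallest overlaps with a CS or RT peak. The weakest members, at Ash2l, Fam110c and Nkrf, had −log10 q of 1.30, at the limit of q 0.05 set by the authors.

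Nearly 9 in 10 beige-only promoter peaks lay on chromatin that was open in adult iWAT adipocytes. In EAKO 88.0% (4909 of 5580, interval 87.1 to 88.8%) met an ATAC peak, beside 92.3% of all 11068 promoter peaks of beige cells. In Flox 92.4% (5154, interval 91.6 to 93.0%) did, beside 95.6% of all promoter peaks. An H3K27ac peak was met by 79.4% in EAKO (4432, interval 78.3 to 80.5%), beside 86.4% of all promoter peaks, and by 85.0% in Flox (4743, interval 84.0 to 85.9%), beside 91.4%. Shared promoter peaks stood higher in each list, at 96.6% for EAKO ATAC, 99.0% for Flox ATAC, 93.5% for EAKO H3K27ac and 97.8% for Flox H3K27ac. Beige-only peaks outside promoters stood lower, at 78.1%, 80.1%, 65.5% and 68.4% in the same order. Of the beige-only promoter peaks 4169 (74.7%) met a peak in all 4 lists, against 92.2% of shared ones, and 284 (5.09%) in none, against 0.583%. Open chromatin in both genotypes with no H3K27ac in either was found at 305 members (5.47%), beside 3.17% of all promoter peaks and 0.838% of shared ones. These peaks were led by Tnrc18, Spry2 (66.3), Zfp36l1 (43.7), 1 of the peaks at Atp6v1a and Naa50 (41.0) and Meis2 (37.8). Spry2 restrains receptor tyrosine kinase signalling, Zfp36l1 is an mRNA decay factor and Meis2 a homeobox partner of Hox proteins.

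**Figure D2:**
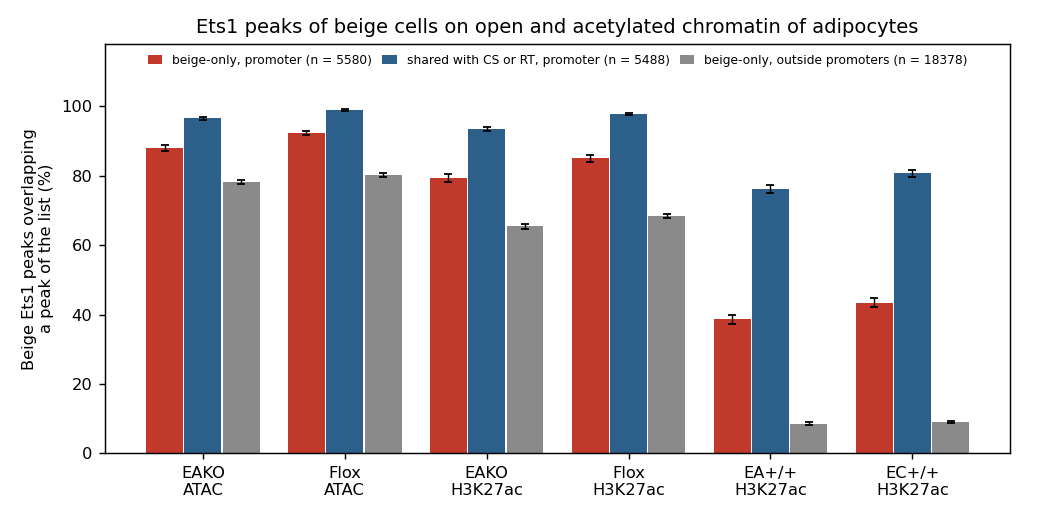
Share of Ets1 peaks of beige cells that overlap a peak of each list, for beige-only promoter peaks (red), promoter peaks shared with CS or RT (blue) and beige-only peaks outside promoters (grey). Bars start at 0, and error bars are Wilson 95% intervals, which cover counting error only. Beige-only promoter peaks lie between the other classes in all 6 lists, at 88.0% in EAKO ATAC and 38.7% in EA+/+ H3K27ac.

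The ATAC and H3K27ac peaks under the members were strong ones of their own lists. Ranked within each list, with 100% for the highest −log10 q, the median ATAC peak under a beige-only promoter peak stood at 84.6% in EAKO and 86.2% in Flox, and the median H3K27ac peak at 84.7% in EAKO and 86.3% in Flox. Under shared promoter peaks the same medians were 93.1% in EAKO and 94.7% in Flox for ATAC, and 93.3% in EAKO and 94.7% in Flox for H3K27ac.

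Few members were open or acetylated in only 1 of the genotypes. An ATAC peak was met in EAKO alone by 30 members (0.538%), beside 0.28% of all promoter peaks, and in Flox alone by 275 (4.93%), beside 3.66%. H3K27ac was met in EAKO alone by 133 (2.38%), beside 1.34%, and in Flox alone by 444 (7.96%), beside 6.28%. The Flox lists are also the longer ones, with 82839 ATAC peaks in EAKO and 88977 in Flox, and 74682 H3K27ac peaks in EAKO and 86834 in Flox. Over all promoters, counting peaks of the lists themselves, 3.37% of EAKO ATAC peaks had no Flox peak and 9.33% of Flox ATAC peaks no EAKO peak. For H3K27ac 11.1% of EAKO peaks and 19.0% of Flox peaks had no partner. Of members on an EAKO ATAC peak 0.611% met no Flox one, and of those on a Flox ATAC peak 5.34% met no EAKO one. For all beige promoter peaks these shares were 0.304% and 3.83%. For H3K27ac they were 3.00% and 9.36% of members, beside 1.55% and 6.87%. Among members on a Flox ATAC peak ranked between 75 and 100% of its list 98.3% were also on an EAKO peak (3668 of 3731), whereas between 0 and 25% of it 40.4% were (40 of 99, interval 31.3 to 50.3%). For H3K27ac the same shares were 95.9% for ranks of 75 to 100% (3383 of 3527) and 34.7% for ranks up to 25% (35 members, interval 26.1 to 44.3%). Even where the member itself met none, a peak of the other genotype was often close. An EAKO ATAC peak lay within 500 bp of 157 of the 275 members open in Flox alone (57.1%), and an EAKO H3K27ac peak within 500 bp of 221 of the 444 acetylated in Flox alone (49.8%). The peaks met in 1 genotype alone had median ranks in their own lists of 27.99% for EAKO ATAC and 49.9% for Flox ATAC, and of 42.1% for EAKO H3K27ac and 63.4% for Flox H3K27ac. The part of peak strength, of list length and of Ets1 status in these counts was not tested.

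The members with a peak in 1 genotype are given by name with the values behind them. Open in EAKO alone, the strongest were Pxn (29.02 in beige cells, with an EAKO ATAC peak of 14.6), which encodes the focal adhesion adaptor paxillin, then Siva1 (16.7), Prob1 (13.1), Fanca (12.1), a Fanconi anaemia repair protein, and Iqcn (10.4). The nearest Flox ATAC peak to Pxn lay 250 bp away. Open in Flox alone, the strongest were Trim8 (95.9), Mxi1 (90.6), a MAX partner that opposes MYC, Nab1 (36.5), a corepressor of EGR proteins, Tpm4 (35.9), a tropomyosin, and Nr2f6 (33.5), an orphan nuclear receptor. At Tpm4 the Flox ATAC peak had −log10 q 124, and an EAKO peak lay 255 bp beyond the member. At Trim8 and Mxi1 the Flox peaks stood at 16.9 and 18.6, with ranks of 45.2% and 48.2% in their list. The nearest EAKO peaks lay 987 and 3051 bp away. Acetylated in EAKO alone, strong members were Erf (51.2), itself an ETS family repressor, Hhipl1 (23.8), Eif4e (22.4), the cap-binding translation factor, and Tnfaip2 (21.9). At Eif4e the EAKO H3K27ac peak had −log10 q 58.9, and a Flox peak lay 259 bp from the member. At Erf a Flox peak lay 21 bp away. Acetylated in Flox alone, the strongest were Srsf4 (86.0), a splicing factor, Dmwd (65.1) and Sh3gl1 (62.6), both shown above with a CCGGAAGT site, Fkbp5 (56.997), a glucocorticoid-responsive chaperone partner, and Prkag1 (51.5), a regulatory subunit of the energy sensor AMPK. Srsf4, Dmwd and Prkag1 had an EAKO H3K27ac peak within 229 bp, whereas the nearest one lay 1501 bp from Sh3gl1 and 4404 bp from Fkbp5. Both marks were met in Flox and neither in EAKO at 83 members (1.49%), among them Nab1 and Tpm4, beside 1.25% of all promoter peaks. The reverse held for 4 members.

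The 284 members without a peak in any of the 4 lists were weak in beige cells as well, with a median −log10 q of 2.67, but a few were strong. The highest were Zmym5 (119), a second peak at Mpp7 (58.5), Tgfb1 (55.5), Lin54 (45.1), a subunit of the cell cycle complex DREAM, and Sdcbp2 (31.9). Open chromatin was close to all of these but Sdcbp2. EAKO ATAC peaks began 454 bp from the member at Zmym5, 285 bp at Mpp7, 68 bp at Tgfb1 and 388 bp at Lin54, against 1030 bp at Sdcbp2. Dinucleotide repeat runs of at least 20 bp lay in 7.75% of the 284, against 3.01% of all members.

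Acetylation in the EA+/+ and EC+/+ lists set beige-only and shared promoter peaks further apart. Of beige-only promoter peaks 38.7% met an H3K27ac peak in EA+/+ (2160 of 5580, interval 37.4 to 39.995%) and 43.5% in EC+/+ (2426, interval 42.2 to 44.8%). Of shared promoter peaks 76.3% did in EA+/+ and 80.8% in EC+/+. These lists are short, with 38484 peaks in EA+/+ and 33713 in EC+/+. An H3K27ac peak in EA+/+ alone was met by 485 members (8.69%), beside 8.12% of all promoter peaks, and in EC+/+ alone by 751 (13.5%), beside 12.7%. Counted over all peaks, acetylated or not, the members thus stood near the general shares. Counted over acetylated peaks they stood higher. Of members on an EC+/+ peak 31.0% had no EA+/+ peak, beside 20.6% for all promoter peaks. Of members on an EA+/+ peak 22.5% had no EC+/+ peak, beside 14.2%. H3K27ac in Flox and not EAKO together with EA+/+ and not EC+/+ was found at 53 members (0.950%) and at 0.856% of shared promoter peaks. The difference between the classes was present at every strength of the beige peak. Above a −log10 q of 24, 37.3% of beige-only and 75.3% of shared promoter peaks met an EA+/+ peak, and 43.1% of beige-only and 81.4% of shared ones an EC+/+ peak. In the Flox and EAKO lists the classes came together as the beige peak grew stronger. Up to 3, H3K27ac in EAKO was met by 60.7% of beige-only and 84.9% of shared peaks, and above 24 by 91.6% of beige-only and 96.8% of shared peaks.

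**Figure D3:**
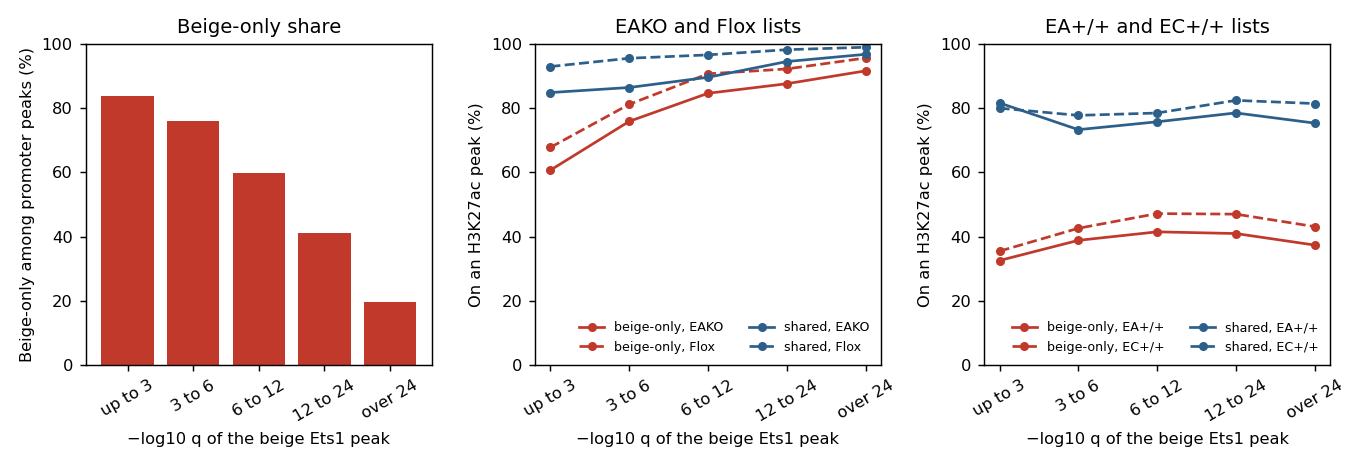
Promoter Ets1 peaks of beige cells split by −log10 q of the beige peak (horizontal axes). Left, bars give the percentage that is beige-only, from 83.8% up to 3 down to 19.5% above 24. Middle and right, lines give the percentage on an H3K27ac peak for beige-only (red) and shared (blue) peaks, in EAKO (solid) and Flox (dashed), and in EA+/+ (solid) and EC+/+ (dashed). The red and blue lines approach each other in the middle plot and stay apart in the right one.

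The genes were next grouped in 34 lists by pathway or cell type. Counts were read against 23.3% of all protein-coding genes with a beige-only promoter peak, and against the 50.1% that these make of the 10182 genes with any Ets1 promoter peak in beige cells. No test was run over the lists. The following shares are of the genes with a beige promoter peak, in lists with more than 7 such genes. That limit left out the olfactory receptors and the marker lists of other cells, given further on. Hox genes (93.8%), described further on, stromal and progenitor genes (89.5%) and matrix genes (87.0%) had the highest beige-only shares. Genes of TGFβ and BMP signalling (72.2%) and of growth factor receptors and MAPK feedback (71.1%) came next. Of 65 extracellular matrix genes 46 had an Ets1 promoter peak in beige cells, and 40 of these (87.0%) had a beige-only one. Of 31 stromal and progenitor genes 19 had a peak, beige-only at 17. Lists can share genes, and Col1a1, Col1a2, Col6a1 and Fn1 count as beige-only in both of these. Lox (71.6), which crosslinks collagen, Adamts1 (67.5), a matrix protease, Timp1 (39.0), a protease inhibitor, and Hspg2 (37.7), the proteoglycan perlecan, had the strongest matrix peaks. Pdgfrb (47.5), Col1a1 (26.7), Fstl1 (24.6) and Twist1 (20.6) led the stromal list. Pdgfrb is the PDGF receptor of mural and progenitor cells, Col1a1 a chain of type I collagen and Twist1 a mesenchymal transcription factor. At Lox, Timp1 and Pdgfrb the members lay on ATAC and H3K27ac peaks of both EAKO and Flox. Lox had H3K27ac of 46.03 in EAKO and 29.5 in Flox, and Pdgfrb 22.4 in EAKO and 22.3 in Flox. Among the 48 member peaks of the matrix list 83.3% met a peak in all 4 lists, beside 74.7% of all members, and 27.1% met H3K27ac in EA+/+, beside 38.7%. Col3a1, Dcn, Lum and Cd34, also typical of adipose progenitors, had no Ets1 promoter peak in beige cells.

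Signalling genes of growth factors followed. In the list of TGFβ and BMP signalling, whose ligands steer progenitors between fibrosis and fat, 26 of 44 genes had a beige-only promoter peak and 36 any beige promoter peak. They included the ligands Tgfb1 (55.5) and Tgfb3, the receptors Tgfbr2 and Bmpr1a, Smad1, Smad3, Smad4, Smad5 and Smad7, and the targets Id1 (52.8) and Id4 (40.01). Of growth factor receptors and MAPK feedback genes 32 of 55 had one. Spry2 (66.3), Pdgfrb, Dusp6 (34.4), a phosphatase of ERK, and Nras (30.5) were strongest. ETS proteins are classical targets of ERK, but a link of ERK with these peaks was not tested. Spry1, Spry4, Spred1, Spred2, Dusp4 and Dusp7 were members too. In the same list Dusp10 and Phlda1 had shared peaks only, and Dusp5 and Dusp8 had no Ets1 promoter peak in beige cells. H3K27ac in EAKO was met by 67.5% of the 40 peaks of this list, beside 79.4% of all members. Of the actin and adhesion list 37 of 72 had a beige-only peak, among them Ahnak, Itga5, Tagln2 (36.2) and Tpm4. These were 61.7% of the 60 with any beige promoter peak, beside 50.1% of all such genes. Wnt, Notch and Hippo genes had 24 of 63, or 51.1% of the 47 with any beige promoter peak, near the 50.1% of all such genes. They were led by the Wnt receptor Fzd2 (71.6), the adaptors Dvl1 (50.6) and Dvl3 (33.1) and Tead3 (37.4), a DNA-binding partner of YAP. In that list 48.7% of the 39 member peaks met all 4 lists.

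Lists that hold many transcription factor genes ranged widely. Of immediate early and AP-1 genes 20 of 37 had a beige-only promoter peak (54.1%). A shared peak was found at 25 of the 34 with any beige promoter peak. Of the 20, 9 had no CS or RT peak at any promoter, against 72.7% of all genes with a beige-only peak. Zfp36 (143), Socs3 (104), a feedback inhibitor of cytokine receptors, Zfp36l1 (43.7) and Mafk (42.3) were strongest, and Jun, Fosb, Myc and Atf3 were also members. Hox genes, which keep the body position of cells, had 15 members of 39 (38.5%) and 16 genes with any beige promoter peak. All were in the A, B and C clusters, led by Hoxb9 (68.0), Hoxc13 (18.1) and the peak of Hoxc10 and Hoxc5 (12.3), and no Hoxd gene had an Ets1 promoter peak in beige cells. Among regulators of beige fate 17 of 45 had one (37.8%). Zfp516 (42.3), Tbx15 (41.6), Foxp1 (33.2) and Ebf1 (32.2) were strongest, and Ebf2, Nfia, Zfp423 and Tle3 were members. Tbx15 had H3K27ac of 12.8 in Flox and no EAKO peak. Prdm16 and Ppargc1a, central coregulators of the thermogenic program, had no Ets1 promoter peak in beige cells, and Pparg, Cebpa and Ppara had shared ones only. In the ETS family 7 of 27 genes had a beige-only peak (25.9%), near the 23.3% of all genes, with Erf (51.2), Etv4 (29.1) and Elk4 (25.4) strongest. Ets1 itself had only shared ones.

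Of 41 adipocyte genes 30 had an Ets1 promoter peak in beige cells and 16 a beige-only one (39.0%), above the 23.3% of all genes. Among the 30 with any beige promoter peak the beige-only share was 53.3%, near the 50.1% of all such genes. These were led by Acly (22.9), Scd2 (20.3), Lpin1 (12.8) and Gpam (12.5), enzymes of fatty acid and glyceride synthesis, and Plin1, Fabp4 and Pnpla2 were members. Adipoq, Cidec, Lep and Adrb3 had no Ets1 promoter peak in beige cells. Of the 20 member peaks of that list 5 (25%) met H3K27ac in EA+/+ and 2 (10%) in EC+/+, beside 38.7% and 43.5% of all members. This holds for the member peaks and not for the promoters as a whole. An H3K27ac peak somewhere in a promoter was found at 28 of the 41 genes in EA+/+ and at 28 in EC+/+. Of 31 thermogenic effectors 8 had a beige-only peak (25.8%), Slc6a8 (18.9), a creatine transporter, Cox7a1 (11.6), a heart and muscle form of a complex IV subunit, Hadha (9.74), a mitochondrial β-oxidation enzyme, and Atp2a2 (9.20), the SERCA2 calcium pump, being strongest. Ucp1, Cidea, Dio2 and Elovl3, which define thermogenic fat, had none. Ets1 peaks do not measure expression, so the beige label could not be checked against these markers.

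Genes of mitochondria and of protein turnover had Ets1 promoter peaks in beige cells almost throughout, most of them shared. Respiratory chain genes had 72 of 83 with a beige promoter peak and 29 with a beige-only one, led by Atp5b (42.9) and Ndufv1 (30.7), parts of ATP synthase and complex I. Mitochondrial ribosome genes had 70 of 78 and 26, cytosolic ribosome genes 77 of 78 and 31, and proteasome genes 45 of 48 and 17. Rpl32 (92.1), Rps2 (43.6) and Rpl39 (38.2) were among the strongest ribosomal members. All 29 member peaks of mitochondrial ribosome genes and 31 of the 32 of cytosolic ribosome genes met a peak in all 4 lists. The lysosome list differed from these, with 26 of 44 genes beige-only and 40 with any beige peak. It was led by Atp6v1a (56.6), Neu1 (40.6), Cd63 (23.9) and Atp6v0a1 (19.1), which include subunits of the proton pump that acidifies lysosomes. Core autophagy genes had 23 of 50, or 48.9% of the 47 with any beige promoter peak, near the 50.1% of all genes. Of these 23, 10 had no CS or RT peak at any promoter, against 72.7% of all genes with a beige-only peak. Wdr45 (52.2), Vmp1 (41.6), Sqstm1 (31.4) and Atg2a (30.8) were strongest, and Ulk1, Becn1, Tfeb and Gabarap were among the members. The member at Atg2a lay 178 bp from a CS peak. Sqstm1 encodes the cargo receptor p62. At Sqstm1 (1 peak with Mgat4b, chr11:50210032-50210376) H3K27ac stood at 39.0 in EAKO and 37.7 in Flox, and at Wdr45 at 35.0 in EAKO and 29.4 in Flox. In contrast, of 45 chaperone and ER stress genes 44 had a beige promoter peak, but 9 a beige-only one (20.0%). Hsp90aa1 (51.5) and Ppp1r15a (36.6) led these.

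In lists of regulators of transcription, growth and division, beige-only shares ran from 36.2% of splicing factors to 45.6% of cell cycle genes, beside 23.3%. Among genes with any beige promoter peak they ran from 37.3% for splicing factors to 50.0% for cell cycle genes, beside 50.1% of all such genes. Chromatin regulators had 36 of 89 with a beige-only peak, led by Hdac5 (106), and 58.0% of their 50 member peaks met all 4 lists. Splicing factors had 25 of 69, led by Scaf1 (105.1), translation factors 32 of 72, led by Eif4enif1 (83.4), and insulin, mTOR and AMPK genes 23 of 56, led by Prkag1. Cell cycle genes had 26 of 57, led by Mcm7 (61.3), and ubiquitin E1 and E2 enzymes 15 of 39, led by Ube2j2 (53.3). At Eif4enif1 the H3K27ac peak stood at 21.8 in EAKO and 149 in Flox, which are values of separate lists and were not divided.

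Genes typical of other cells were mostly without a beige-only promoter peak, although Schwann cell and mural markers stood above the 23.3% of all genes. Beige-only promoter peaks were found at 2 of 21 macrophage markers (Csf1r at 11.6 and Cd68 at 5.07), 3 of 25 lymphocyte markers, 1 of 20 endothelial, 3 of 10 mural, 2 of 10 mesothelial, 4 of 10 Schwann cell and 1 of 10 muscle markers, and at 0 of 10 epithelial markers. The macrophage markers Adgre1 and Ptprc had no Ets1 promoter peak in beige cells. Olfactory receptors, which fat does not use, had 5 of 1093 (0.457%). Only 7 of them had any beige promoter peak, so the beige-only share of these was 71.4%, close to that of the MAPK feedback list (71.1%). The H3K27ac lists had a promoter peak in both EAKO and Flox at 4 of 21 macrophage markers and 13 of 20 endothelial markers (65%), beside 58.7% of all protein-coding genes. Schwann cell (7 of 10) and mural markers (6 of 10) also stood above that share. Lymphocyte (5 of 25), mesothelial (3 of 10), muscle (3 of 10) and epithelial markers (2 of 10) stood below it. The part of such cells in the shares above was not tested.

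**Figure D4:**
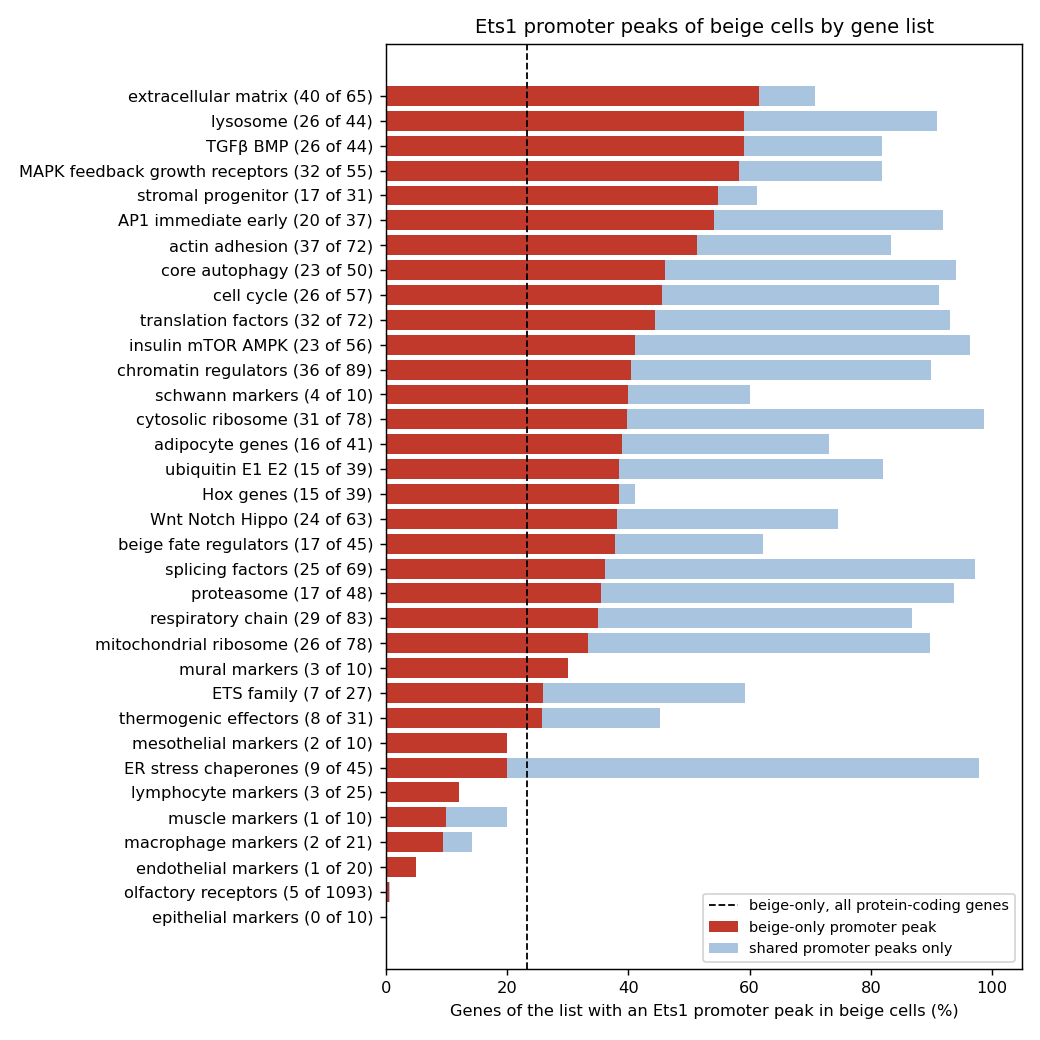
Genes of each list with an Ets1 promoter peak in beige cells, as a percentage of the list. Red bars give genes with a beige-only promoter peak (count and list size in the label), light blue bars genes with shared promoter peaks only, and the dashed line the 23.3% of all protein-coding genes. Matrix genes are at the top with 40 of 65, and stromal and Hox genes have little light blue, whereas chaperones have 9 of 45 in red and are mostly light blue.

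Sequence around the summits set the members between shared promoter peaks and peaks outside promoters. The summit windows were searched on both strands. CCGGAA was found in 10.1% of beige-only promoter peaks (563 of 5580, interval 9.33 to 10.9%), against 14.2% of shared promoter peaks, 1.75% of beige-only peaks outside promoters and 8.32% of windows centred on the 93459 protein-coding start positions. CCGGAAGT was in 2.81% of beige-only promoter peaks, 4.30% of shared ones and 2.38% of start positions. The plain core GGAA was in 66.5% of beige-only peaks, 61.7% of shared ones and 66.8% of start positions. The longer ETS sites were thus absent from the windows of most members. The share with CCGGAA grew with the beige peak, with 5.11% up to a −log10 q of 3 and 14.7% above 24. In the strongest bin shared promoter peaks stood at 14.3%. In each weaker bin they stood above the beige-only peaks, with 17.9% against 12.9% between 12 and 24 and 7.57% against 5.11% up to 3. The CCGGAA share was 11.8% among the 4169 members met by all 4 lists and 1.41% among the 284 met by none (4 of 284). By gene list it was 34.5% in the 29 member peaks of mitochondrial ribosome genes and 31.3% in the 32 of cytosolic ribosome genes, against 4.17% in the 48 of matrix genes, while none of the 20 adipocyte gene peaks held it.

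The AP-1 site TGANTCA followed the opposite order. It was found in 5.82% of beige-only promoter peaks (325, interval 5.24 to 6.47%), against 1.38% of shared promoter peaks and 1.95% of start positions, and in 17.96% of beige-only peaks outside promoters. The RUNX core TGTGGT was in 6.16% of beige-only and 3.33% of shared promoter peaks, beside 5.39% of start positions. The TEAD core GGAATG was in 5.09% and 2.90%, beside 4.05%, and the C/EBP form TTGCNNAA in 2.83% and 1.60%, beside 2.75%. The GC box GGGCGG was in 29.4% of beige-only and 48.2% of shared promoter peaks, beside 20.3% of start positions. CCAAT was in 15.1% and 20.7%, beside 11.3%, and the NRF1 core GCGCATGC in 1.16% and 3.01%, beside 1.14%. For C/EBP and NRF1 the beige-only peaks thus stood near the start positions. GGAATG contains GGAA, so each of its matches is also a match of the plain ETS core. TGACGTCA was in 1.04% of beige-only and 1.22% of shared promoter peaks, beside 0.813% of start positions, and the EBF core CCCNNGGG in 8.12% and 8.76%, beside 4.71%. A match is a description of letters and not a bound site.

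Base composition went along with these shares. The ratio of observed to expected CpG over 501 bp had a median of 0.648 in beige-only and 0.822 in shared promoter peaks, and 0.206 outside promoters. It exceeded 0.6, as in CpG islands, in 3090 members (55.4%), against 89.4% of shared promoter peaks. The members below that value held TGANTCA in 10.8% of windows and CCGGAA in 4.22%, while those above held them in 1.78% and 14.8%. Members of low CpG met EAKO ATAC peaks in 85.5% and EAKO H3K27ac in 77.6%, those of high CpG in 90.0% and 80.9%. In Flox the differences were larger, with 87.6% for ATAC and 78.8% for H3K27ac at low CpG, and 96.2% for ATAC and 90.03% for H3K27ac at high CpG. In EA+/+ the H3K27ac share was 23.8% for low CpG and 50.7% for high CpG. The part of CpG content in the difference between beige-only and shared peaks was not tested.

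**Figure D5:**
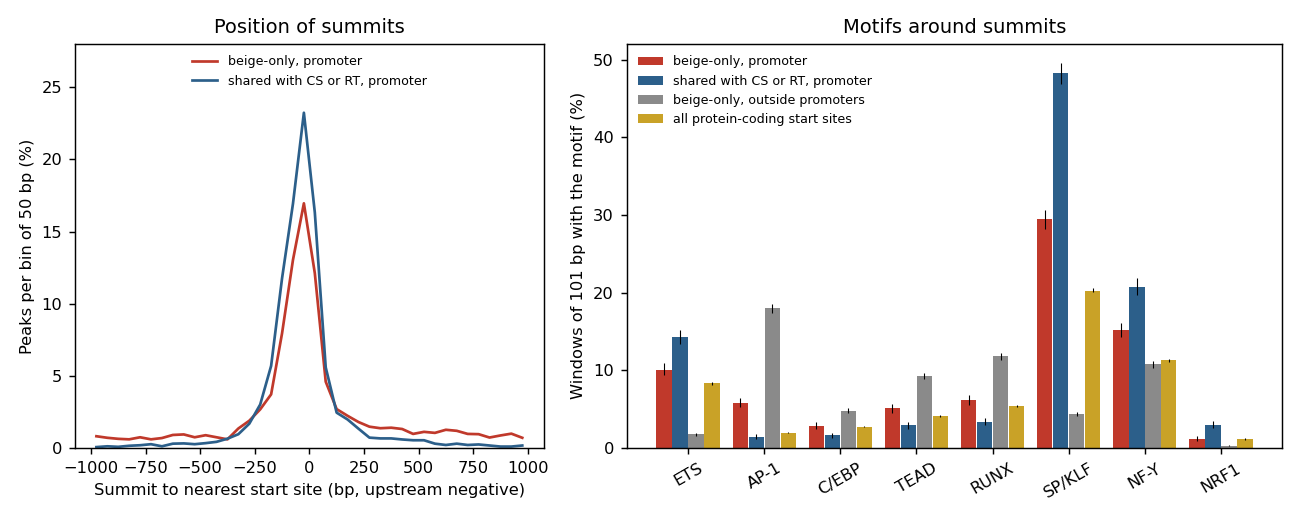
Left, percentage of beige-only (red) and shared (blue) promoter peaks whose summit falls in each bin of 50 bp around the nearest TSS. Right, percentage of summit windows (50 bp on each side) that hold each motif on either strand, for the same classes, for beige-only peaks outside promoters (grey) and for windows at all protein-coding start positions (yellow), with Wilson 95% intervals. AP-1 sites are in 5.82% of beige-only and 1.38% of shared promoter peaks, and GC boxes in 29.4% and 48.2%.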

How the data were processed

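Ets1 and H3K27ac were profiled by CUT&Tag and open chromatin by ATAC, 1 library per group. Per the labels and the study's methods, the authors trimmed read pairs with trimmomatic, aligned them with BWA to mm10 and ran MACS2 on every library by itself, keeping q under 0.05. SAMtools and deepTools appear in the processing notes of the submitters as well. Whether MACS2 had a control library, and whether blacklisted regions were removed, is not given in the sources used here. Each deposited list holds a score, a linear ratio (fold over the local background), a −log10 p-value, a −log10 q-value and the summit offset in bp, all as the authors' peak caller gave them. The lists give no read counts, and the reads per library that the study lists were not used here. Values were compared as ranks within a list or given side by side, and never divided between lists.

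Overlaps of at least 1 bp were found with Python 3.11.15, pandas 2.3.3 and numpy 2.4.6, and the number of members was checked with bedtools 2.31.1. Overlap, distance and motif functions were tested on simulated data. Promoters came from 93513 TSS of GENCODE M21. Sequence came from GRCm38.p6 of RefSeq, the build of the lists, and 32851 of 32851 RefSeq promoter sequences matched it. Coordinates are 1-based. Intervals are Wilson 95% intervals (scipy 1.17.1), and figures used matplotlib 3.10.9. The members, the gene lists, the motifs and the alternatives were chosen with earlier results of these data known. Named are the 15 strongest members, the 4 strongest of each gene list, the 5 strongest of each class of openness and acetylation, 3 at each edge of the rule, and genes of a list chosen after their values were seen. The alternatives were other promoter widths, overlap rules, q limits, transcripts and windows. Some named members and 1 sequence that these rules select are not reported here.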

Additional observations from a re-analysis of the deposited data

How the results depend on the processing

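Peak lists carry no read counts, so peaks could not be called again at equal depth. No paired analysis was possible because each group had 1 library. Keeping equal numbers of the best beige and CS peaks gave 2802 beige-only promoter peaks at 2844 genes, and under every other setting tried for them both counts stayed within 1.5 times the 5580 peaks and 5105 genes. The shares moved as follows, each time in the order EAKO ATAC, Flox ATAC, EAKO H3K27ac, Flox H3K27ac, all 4 lists and CCGGAA. With equal numbers they were 94.3%, 97.6%, 87.0%, 92.2%, 84.0% and 12.6%. With promoters of 500 bp on each side they were 89.1%, 93.8%, 80.9%, 87.3%, 77.0% and 11.4%, and with 3 kb 84.8%, 88.6%, 74.8%, 79.4%, 68.9% and 8.12%. With Ets1 peaks of q under 0.001 they were 92.1%, 95.8%, 84.1%, 89.6%, 80.4% and 11.7%. Calling peaks shared only from 50% overlap gave 89.5%, 93.5%, 81.8%, 87.4%, 77.8% and 10.9%, and basic transcripts alone gave 90.1%, 94.9%, 81.2%, 87.8%, 77.5% and 11.5%. Keeping only genes with no CS or RT peak at any promoter, a setting chosen after seeing the data, gave 89.1%, 93.6%, 80.3%, 86.5%, 76.3% and 11.3%. With ATAC and H3K27ac peaks of q under 0.001 the Flox H3K27ac share was 83.8%, and in windows of 250 bp on each side CCGGAA was in 28.96%. The causes of these shifts were not tested. Counting a CS or RT peak within 500 bp as shared, or leaving out peaks on dinucleotide runs, left every share within its 95% interval.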
